A study of Mus musculus with 4 samples.

Results

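The genes described here are 50 axon guidance ligands and receptors and axonal adhesion molecules, out of 24971 genes counted by RNA-seq in the neural tube of E12.5 mouse embryos. They were taken from a fixed list of symbols: 3 Slit ligands and 3 Robo receptors, the ligands Ntn1 and Draxin with 6 receptors of the netrin system, 10 semaphorins with 2 neuropilins and 8 plexins, 5 ephrins with 8 Eph receptors, and the adhesion molecules L1cam, Cntn2 and Nrcam. There were 4 libraries from the C57BL/6 background, 2 from wild-type (WT) embryos and 2 from embryos labelled Lbx1Δ/Δ, a mutation of the homeobox gene Lbx1 of dorsal spinal interneurons. The labels do not say which part of Lbx1 was removed. Each library was a pool of neural tubes of 1 genotype from 1 litter, so neurons, progenitors, floor plate and any tissue left on the tubes were measured together. The labels do not say whether libraries with the same replicate number came from the same litter, and p-values cover only the spread between these pools. Total counts ran from 16853984 to 20579803 per library.

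Growing axons are steered by ligands that attract or repel them, read by receptors on the growth cone. In the spinal cord, commissural axons are drawn to the ventral midline by Ntn1 acting through Dcc, cross the floor plate, and are then kept from turning back by Slit proteins acting through Robo1 and Robo2. Robo3 acts before the crossing and lowers the response to Slit. Semaphorins act through neuropilins and plexins, and ephrins through Eph receptors, often by repulsion between a growth cone and the cells around it.

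Lbx1 itself had counts of 819 and 1379 in WT libraries 1 and 2 and of 1946 and 6520 in the libraries labelled Lbx1Δ/Δ. The count was thus higher, not lower, under the mutant label. If the counted sequence lies outside the deletion this checks nothing, so each genotype direction below is between libraries as labelled.

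Of the 50 genes, 29 were counted well and 21 were hardly counted at all, and the split followed the number of RefSeq accessions (transcript records) under which a gene was counted. All 29 genes with a single accession had at least 222 counts in every library. All 21 genes with several accessions had at most 84 counts in any library, 12 of them had fewer than 10 counts in the 4 libraries together, and 9 had 0 counts. Those at 0 were Robo2, Neo1, Unc5c, Unc5d, Nrp1, Nrp2, Efna5, Epha3 and Ephb2. The others with fewer than 10 counts were Unc5a, Unc5b and Ephb1, while Slit2 had 14 counts, Plxnb2 19 and Sema3f 26 in total. Over all genes, 41.3% of 17047 with a single accession and 61.3% of 7924 with several had fewer than 10 counts in total. Gapdh, which every cell uses and which has 2 accessions, had 3 to 10 counts per library, so a 0 here is no measure of absence. A count of 0 allows at most 0.146 to 0.178 counts per 1000000 counts of the library (CPM, for 3 counts), a limit that covers counting error only and only the counted sequence.

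**Figure D1:**
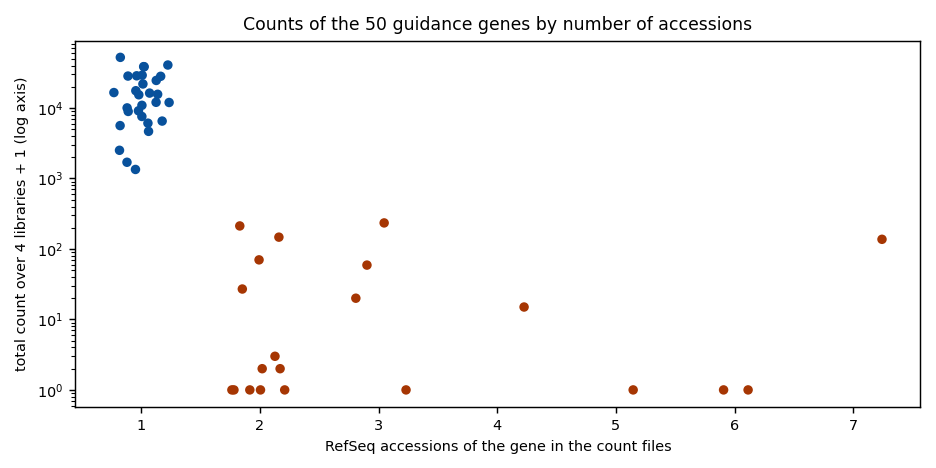
Total count over the 4 libraries (plus 1, log axis) of each of the 50 guidance genes against its number of RefSeq accessions, with points spread sideways within each number. Blue points are the 29 genes with a single accession, all at 1341 counts or more, and brown points the 21 genes with several, all at 233 or fewer.

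Among the 29 single-accession genes the adhesion molecule Cntn2 and the receptor Robo3 were the most abundant per length by the mean of the 4 libraries. Values from here on are listed in the order WT library 1, WT library 2, Lbx1Δ/Δ library 1 and Lbx1Δ/Δ library 2. Cntn2, an immunoglobulin adhesion molecule of commissural axons, was at 67.1, 115, 80.1 and 152 CPM per kilobase of transcript (lengths from GENCODE, GRCm38). Robo3 was at 51.5, 84.3, 74.1 and 130 and Robo1 at 66.2, 80.6, 68.1 and 87.7 CPM per kilobase, so their ranges overlapped. Ntn1 was at 61.4, 69.6, 60.0 and 84.6 and Dcc at 34.3, 66.0, 43.1 and 68.3, again with overlap. Slit1 (16.2, 35.4, 22.5 and 49.9) lay above Slit3 (17.9, 13.0, 16.9 and 11.5) in 3 of the 4 libraries on this scale. The ephrin-B ligands Efnb1, Efnb2 and Efnb3 lay between 56.2 and 80.5 in all libraries, within each other's range. In WT library 1 Efnb1 (75.4) and Efnb2 (70.1) stood above Cntn2 and Robo3. At the low end stood Sema3e (2.91, 3.16, 2.21 and 2.61), Epha8 (2.76, 6.22, 2.73 and 8.94) and Sema3d (6.24, 5.79, 5.90 and 4.11). The order of these 3 changed from library to library.

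Both factors in the labels were then compared, genotype and replicate number. After a low-count filter 35 of the 50 genes remained in the tests, the 29 with a single accession and 6 with several (Sema3a, Sema6a, Sema6d, Plxna3, Epha7 and Nrcam). Between genotypes 0 of the 35 were called by the quasi-likelihood test of edgeR at a Benjamini-Hochberg threshold of 0.05, and 0 had an unadjusted p below it. Over all 10757 genes tested, 0 were called (0% of genes), 55 had an unadjusted p below 0.05, and DESeq2 also called 0, with 33. This genotype test had no term for replicate number. With that term added, edgeR called 92 of the 10757 genes and 2 of the 35, Slit1 and Robo3. Between replicate numbers, tested with genotype as a second term, 21 of the 35 (60%) were higher in number 2, against 17.8% of all tested genes, and 4 (11.4%) were lower, against 17.8% of all tested genes. Their median log2 difference was 0.40, against 0.00014 over all genes tested. DESeq2 called 18 of the 35 higher and 3 lower. Among the 29 single-accession genes alone, the edgeR number test called 18 higher and 4 lower. With replicate number as the only term, leaving out WT library 1 or Lbx1Δ/Δ library 1 left 0 of the guidance genes called, with 14 and 20 at an unadjusted p below 0.05, while leaving out WT library 2 gave 26 calls and leaving out Lbx1Δ/Δ library 2 gave 16. Without Lbx1Δ/Δ library 2 the number differences were 0.42 for Robo3, 0.20 for Ntn1, -0.26 for Sema5a, 0.30 for Plxnb1 and -0.18 for Ephb3, and without WT library 1 that of Plxna1 was 0.18, each smaller in size, by over 1.5 times, than the value from all 4 libraries.

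**Figure D2:**
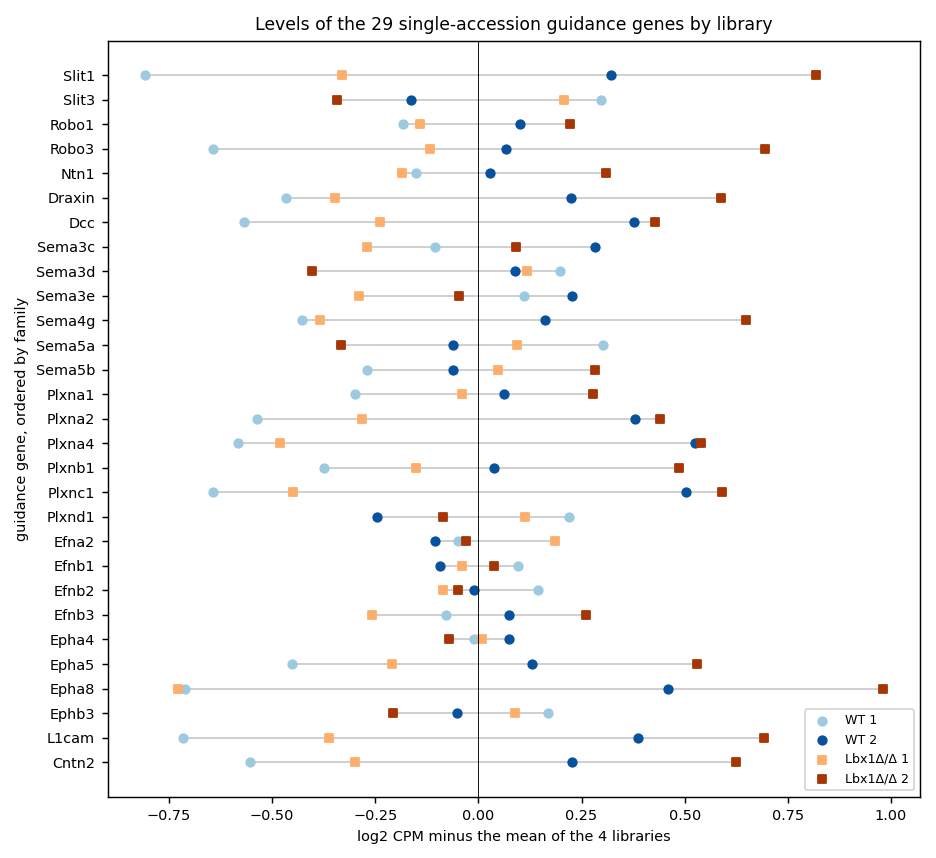
Level of each of the 29 single-accession guidance genes in each library, as log2 CPM minus the mean of the 4 libraries, with circles for WT, squares for Lbx1Δ/Δ, light colours for number 1 and dark colours for number 2. For Slit1, Dcc, Plxna4 and L1cam both dark symbols lie above both light ones.

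The same direction was seen inside each genotype label. Of the 35 genes, 25 were higher in number 2 within WT and also within Lbx1Δ/Δ, against 40.5% of all tested genes, 6 were lower within both, against 37.8%, and 4 went opposite ways. The summed level of all 50 genes was 5772 CPM in WT library 1 and 6264 CPM in Lbx1Δ/Δ library 1, against 7797 and 9075 CPM in the number 2 libraries.

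**Figure D3:**
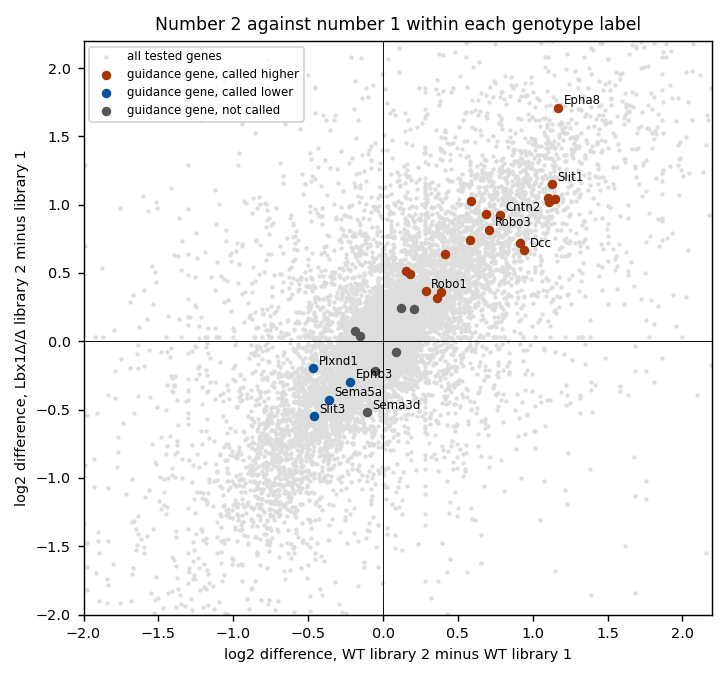
Log2 difference between number 2 and number 1 within WT (horizontal) and within Lbx1Δ/Δ (vertical), with grey points for all tested genes and coloured points for the 29 single-accession guidance genes by their call in the number test. The axes leave out 424 of the grey points. Epha8 (1.17 and 1.71) lies at the upper right, and Slit3, Sema5a, Plxnd1 and Ephb3 at the lower left.

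Promoters of 5 of these genes are printed because their transcripts moved with replicate number, 3 upwards (Robo3, Epha8 and L1cam) and 2 downwards (Slit3 and Sema5a). They were chosen with these values known. Each runs from 250 bases before to 50 after a start site in RefSeq (GRCm38.p6), 5′ to 3′ on the gene's strand, and capitals mark TAATTA, a core bound by many homeodomain proteins, and the GC box GGGCGG on either strand (CCGCCC), overlapping matches joined. The windows are Robo3 at chr9:37433126-37433425, minus strand, Epha8 at chr4:136956767-136957066, minus strand, L1cam at chrX:73880741-73881040, minus strand (the first of 2 listed starts), Slit3 at chr11:35121206-35121505, plus strand and Sema5a at chr15:32244563-32244862, plus strand.
Robo3: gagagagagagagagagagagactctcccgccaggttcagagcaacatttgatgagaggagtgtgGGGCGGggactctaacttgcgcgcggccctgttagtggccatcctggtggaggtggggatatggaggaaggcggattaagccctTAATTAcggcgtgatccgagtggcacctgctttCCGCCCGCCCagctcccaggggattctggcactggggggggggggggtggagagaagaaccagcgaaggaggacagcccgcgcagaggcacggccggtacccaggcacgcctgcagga
Epha8: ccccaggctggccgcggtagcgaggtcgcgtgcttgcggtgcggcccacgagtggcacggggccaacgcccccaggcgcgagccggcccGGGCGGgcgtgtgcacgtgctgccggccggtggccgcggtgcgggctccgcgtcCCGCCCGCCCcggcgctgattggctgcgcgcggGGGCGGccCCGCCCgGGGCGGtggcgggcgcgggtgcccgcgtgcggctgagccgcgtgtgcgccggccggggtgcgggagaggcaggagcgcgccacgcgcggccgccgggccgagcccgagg
L1cam: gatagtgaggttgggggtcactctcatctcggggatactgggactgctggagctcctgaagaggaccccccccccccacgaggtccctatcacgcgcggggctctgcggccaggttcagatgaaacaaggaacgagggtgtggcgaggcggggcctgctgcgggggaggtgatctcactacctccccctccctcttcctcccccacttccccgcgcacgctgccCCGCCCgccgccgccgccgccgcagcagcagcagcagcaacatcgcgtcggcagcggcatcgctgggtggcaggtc
Slit3: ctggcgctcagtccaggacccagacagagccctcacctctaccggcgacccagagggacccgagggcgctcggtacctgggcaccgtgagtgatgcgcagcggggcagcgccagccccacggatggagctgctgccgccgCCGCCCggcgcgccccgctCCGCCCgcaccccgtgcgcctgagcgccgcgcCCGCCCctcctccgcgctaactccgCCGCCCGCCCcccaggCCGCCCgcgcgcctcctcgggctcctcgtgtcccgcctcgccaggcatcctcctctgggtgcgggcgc
Sema5a: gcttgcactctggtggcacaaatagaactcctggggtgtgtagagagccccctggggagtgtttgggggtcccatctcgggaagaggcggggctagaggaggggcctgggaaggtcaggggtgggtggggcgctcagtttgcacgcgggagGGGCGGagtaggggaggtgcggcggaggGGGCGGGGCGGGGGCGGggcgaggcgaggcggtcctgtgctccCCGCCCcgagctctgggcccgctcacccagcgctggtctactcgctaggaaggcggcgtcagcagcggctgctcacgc

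The GC box occurred in all 5 windows, with 3 matches for Robo3, 6 for Epha8, 1 for L1cam, 6 for Slit3 and 5 for Sema5a, so both directions of change carried it. It was in 33 of the 47 listed promoters of 41 guidance genes (70.2%), in 62.2% of 9619 promoters of the tested genes and in 35.7% of all 32851 promoters of this length. GC content was high as well, with a median of 67.0% over the guidance promoters and 60.7% over those of the tested genes. TAATTA was in the Robo3 window alone among the 5, in 4.26% of the guidance promoters, in 2.59% of those of tested genes and in 5.29% of all promoters. The E box CAGCTG, a form bound by proneural bHLH factors, was in none of the 5 windows, in 8.51% of the guidance promoters, in 15.9% of those of tested genes and in 16.3% of all promoters.

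Slit1 and both counted Robo receptors rose in number 2 while Slit3 fell. None of them passed the genotype test, which had no term for replicate number. Slit1, a midline repellent also made by neurons, was at 81.5, 178, 114 and 252 CPM. Both number 2 libraries lay above both number 1 libraries, a 2.17-fold rise with a log2 difference of 1.12 (SE 0.080, adjusted p = 8.49e-08). With replicate number as the only term the Slit1 SE was 0.18 (edgeR adjusted p = 0.00223). Slit3, a ligand also made outside the nervous system, was at 93.8, 68.1, 88.2 and 60.2 CPM, higher in number 1 in both genotypes (log2 -0.52, SE 0.097, adjusted p = 0.000546). Robo3 was at 247, 404, 356 and 625 CPM. Lbx1Δ/Δ library 2 stood highest and WT library 1 lowest, and the number difference was 0.74 (SE 0.094, adjusted p = 1.59e-05). With replicate number as the only term the Robo3 SE was 0.21 (edgeR adjusted p = 0.0242). Robo1 was at 500.3, 609.6, 515 and 663 CPM, a smaller rise of 0.31 on the log2 scale (adjusted p = 0.023) that did not pass with replicate number as the only term (adjusted p = 0.0501).

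In the genotype test, without a term for replicate number, the Slit and Robo genes differed by about a standard error or less, Robo3 apart. The WT mean of Robo3 was 326 ± 111 CPM and the Lbx1Δ/Δ mean 490.3 ± 191 CPM (SD, n = 2 each). The log2 difference was 0.57 (SE 0.37), with an adjusted p of 0.9998 in edgeR. With a term for replicate number it was 0.56 (SE 0.094, edgeR adjusted p = 0.0102). In fits lacking that term it was 0.13 without Lbx1Δ/Δ library 2, 0.28 without WT library 1, 0.93 without Lbx1Δ/Δ library 1 and 0.97 without WT library 2. The 2 genotypes overlapped, because WT library 2 lay above Lbx1Δ/Δ library 1. Compared at the same number, Robo3 was higher in the Lbx1Δ/Δ library by 0.53 and 0.63 on the log2 scale. Slit1 differed by 0.47 (SE 0.53), and by 0.48 and 0.50 within numbers 1 and 2. With the term for replicate number the Slit1 difference was 0.47 (SE 0.080, edgeR adjusted p = 0.0104). Robo1 and Slit3 were not called in that fit. Robo1 differed by 0.071 (SE 0.21) and Slit3 by -0.14 (SE 0.29), both with groups that overlapped. Without Lbx1Δ/Δ library 2 the fitted genotype differences of Slit1, Robo1 and Slit3 turned to -0.20, -0.11 and 0.12, and without WT library 1 those of Robo1 and Slit3 turned to -0.046 and 0.13. All fits with a library left out lacked the term and left the numbers unequal between genotypes, so the number difference enters them.

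The attractant Ntn1, its receptor Dcc and Draxin, a secreted repellent that also binds Dcc, all rose in number 2. Dcc was at 354, 681, 444 and 705 CPM, with both number 2 libraries well above the others and a log2 difference of 0.79 (SE 0.10, adjusted p = 2.72e-05). Draxin was at 173, 279, 188 and 359 CPM, a 1.73-fold rise (log2 0.79, SE 0.091, adjusted p = 6.17e-06). Its genomic span overlaps Mad2l2, which had 383 counts in the 4 libraries together, against 3238 to 6047 per library for Draxin. Ntn1, made by the floor plate and by progenitors, was at 352, 399, 344 and 485 CPM and rose less, by 0.32 (SE 0.10, adjusted p = 0.0203), a call lost with replicate number as the only term (adjusted p = 0.0604). Within WT and within Lbx1Δ/Δ the Ntn1 differences were 0.18 and 0.49, and those of Dcc 0.94 and 0.67. Of the other netrin receptors, Neo1, Unc5a, Unc5b, Unc5c and Unc5d had 0 to 1 counts per library and give no level.

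By genotype label the mean of Dcc was 517 ± 231 CPM in WT and 575 ± 184 CPM in Lbx1Δ/Δ, and that of Ntn1 376 ± 33.2 and 415 ± 99.6 CPM (SD, n = 2 each). The log2 differences of 0.14 (SE 0.40) for Dcc, 0.13 (SE 0.22) for Ntn1 and 0.26 (SE 0.39) for Draxin were all below their standard errors. Dcc was higher in the Lbx1Δ/Δ library by 0.33 and 0.051 within numbers 1 and 2, while Ntn1 differed by -0.033 and 0.28. Without Lbx1Δ/Δ library 2 the 3 genotype differences were -0.22, -0.13 and -0.27 for Dcc, Ntn1 and Draxin, and without WT library 1 those of Dcc and Draxin were -0.24 and -0.029. Lacking a term for replicate number, these fits also take in the number difference.

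The semaphorins split by gene between the numbers. Sema3c, Sema4g and, on few counts, Sema6d were higher in number 2. Sema5a was lower and the other 5 tested were not called. Sema4g, a transmembrane semaphorin, was at 101, 152, 104 and 213 CPM, level in both number 1 libraries and highest in Lbx1Δ/Δ library 2 (log2 0.79, SE 0.097, adjusted p = 1.15e-05). Sema3c, a secreted ligand of neuropilin and plexin receptors, was at 118, 154, 105 and 135 CPM (log2 0.36, SE 0.082, adjusted p = 0.00298). Both number 2 libraries lay above both number 1 libraries for each of them. Sema5a, a transmembrane semaphorin with thrombospondin repeats, was at 202, 157, 175 and 130.1 CPM and fell in number 2 (log2 -0.41, SE 0.081, adjusted p = 0.000838). Its relative Sema5b was at 103, 119, 129 and 152 CPM and did not pass (log2 0.20, SE 0.082, adjusted p = 0.0659), but did when only single-accession genes were fitted (adjusted p = 0.0385). Sema3d was at 39.4, 36.5, 37.2 and 25.9 and Sema3e at 19.97, 21.6, 15.1 and 17.9 CPM, with number differences of -0.33 and 0.16 (adjusted p = 0.104 and 0.471). Sema6d had counts of 22, 36, 18 and 60, called in number 2 by edgeR (adjusted p = 0.0205) and not by DESeq2 (adjusted p = 0.167). Sema3a and Sema6a stayed below 22 counts in every library.

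Sema5b and Sema3e were the semaphorins whose genotype groups stood apart with usable counts. All tested genes gave 11.3% with both Lbx1Δ/Δ libraries above both WT libraries and 9.31% with both below, and among the 35 guidance genes 3 were above (Sema5b, Efna2 and Sema3a) and 2 below (Sema3e and Efnb2), which is no more than the background. Sema5b differed by 0.32 (SE 0.17) on the log2 scale, and by 0.32 and 0.34 within numbers 1 and 2. Sema3e differed by -0.35 (SE 0.23) and by -0.40 and -0.27 within the numbers. Sema3a had counts of 10, 11, 16 and 21. Each of the 3 had an edgeR adjusted p of 0.9998.

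Plexins, the receptors that transmit most semaphorin signals, rose in number 2 in 6 of 7 tested members, Plxna3 on few counts, and Plxnd1 fell. Plxna4 was at 106, 229.5, 114 and 232 CPM, about equal in both number 1 libraries and about equal in both number 2 libraries, a 2.06-fold rise (log2 1.05, SE 0.083, adjusted p = 1.67e-07). Plxna2 (267, 504, 318 and 525 CPM) and Plxnc1 (39.6, 87.8, 45.3 and 93.3 CPM) likewise had both number 2 libraries above both number 1 libraries, with log2 differences of 0.80 and 1.07. Plxnb1, which binds Sema4 ligands, was at 311, 413, 362 and 564 CPM (log2 0.51, SE 0.097, adjusted p = 0.000709). Plxna1 was at 438, 562, 524 and 653 CPM (log2 0.32, SE 0.098, adjusted p = 0.0173), a call that was lost with replicate number as the only term (adjusted p = 0.0833). Plxna3 had counts of 36, 56, 35 and 84 and was called by edgeR (adjusted p = 0.0239) and not by DESeq2 (adjusted p = 0.166). Plxnd1, a receptor for Sema3e that is well known in blood vessels, went the other way at 250.1, 181, 232 and 202 CPM (log2 -0.35, SE 0.090, adjusted p = 0.0059). Of the endothelial markers 1 of 4 tested was called higher and 0 lower, and the 10 listed summed to 435, 414, 390.2 and 414 CPM, of which 5 (Pecam1, Tek, Emcn, Esam and Robo4) were at 0 and had several accessions each. Between genotypes the plexins had a median log2 difference of 0.11, with 0.34 for Plxnb1 and 0.027 for Plxna4. That of Plxnb1 was 3.97e-05 without Lbx1Δ/Δ library 2, 0.17 without WT library 1, 0.55 without WT library 2 and 0.63 without Lbx1Δ/Δ library 1. Each of these fits lacked a term for replicate number, so the number difference enters it.

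Among ephrins and Eph receptors 4 of 9 tested genes were called, with Efnb3, Epha5 and Epha8 higher and Ephb3 lower in number 2. Efnb1, a membrane-bound ligand of EphB receptors, was at 246, 216, 224 and 236 CPM and Efnb2 at 336, 302, 286 and 294 CPM, with number differences of -0.074 and -0.079 (adjusted p = 0.562 and 0.542). Epha4, a receptor of motor and interneuron axons, was at 225, 239, 228 and 216 CPM, a number difference of -0.016 (SE 0.088, adjusted p = 0.914). Efna2, the better counted of the 2 ephrin-A ligands among the 50, was at 81.9, 78.9, 96.5 and 83.01 CPM (log2 -0.15, SE 0.095, adjusted p = 0.228). In these 4 genes the number 1 and number 2 libraries overlapped. In Epha8 they stood far apart, at 13.02, 29.3, 12.9 and 42.1 CPM, near equal in the number 1 libraries and 2.68-fold higher in number 2 (log2 1.42, SE 0.17, adjusted p = 8.04e-06). Epha5 was at 65.5, 97.9, 77.4 and 129 CPM (log2 0.64, SE 0.092, adjusted p = 5.34e-05) and Efnb3 at 202, 225, 179 and 256 CPM (log2 0.32, SE 0.095, adjusted p = 0.0157). Ephb3 was at 118, 101, 111 and 90.7 CPM, lower in number 2 within both genotypes (log2 -0.28, SE 0.087, adjusted p = 0.0202), which DESeq2 did not call (adjusted p = 0.114). With replicate number as the only term Efnb3 and Ephb3 were not called (adjusted p = 0.0583 and 0.0882). Epha7 had counts of 57, 72, 48 and 56 and was not called (adjusted p = 0.353). Genotype differences were -0.019 (SE 0.16) for Efnb1, -0.15 (SE 0.15) for Efnb2, -0.076 (SE 0.15) for Epha4 and 0.36 (SE 0.68) for Epha8.

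The axonal adhesion molecules L1cam and Cntn2 rose in number 2, as did Nrcam on few counts. L1cam, an immunoglobulin-family adhesion molecule of fasciculating axons, was at 199, 427, 254 and 527 CPM, a 2.08-fold rise (log2 1.06, SE 0.092, adjusted p = 4.55e-07). Cntn2 was at 482, 828, 575 and 1091 CPM (log2 0.83, SE 0.10, adjusted p = 9.86e-06). In both genes both number 2 libraries lay above both number 1 libraries. Nrcam, a partner of Cntn2 and L1-family proteins, had counts of 20, 54, 22 and 50, a log2 difference of 1.44 (SE 0.41, adjusted p = 0.0116) that DESeq2 did not call (adjusted p = 0.118). By genotype label the differences were 0.30 (SE 0.50) for L1cam and 0.33 (SE 0.41) for Cntn2, below their standard errors. Within numbers 1 and 2 they were 0.35 and 0.30 for L1cam, and 0.25 and 0.40 for Cntn2.

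Over the families the genotype differences were small and leaned upwards. Fitted values were higher in the libraries labelled Lbx1Δ/Δ for 24 of the 35 genes and lower for 11, with a median log2 difference of 0.11, against 49.5% of all tested genes higher and a median of -0.0026. Among the single-accession genes they ran from -0.35 (Sema3e) to 0.57 (Robo3). At the same number, 18 of the 35 genes were higher in the Lbx1Δ/Δ library in both comparisons (30.3% of all tested genes), 7 were lower in both (28.9%) and 10 went opposite ways. With a library left out, 17 of 36 tested genes were higher without WT library 1 and 10 of 36 without Lbx1Δ/Δ library 2. The counts were 26 of 35 without WT library 2 and 25 of 36 without Lbx1Δ/Δ library 1. Those fits had no term for replicate number and left the numbers unequal between genotypes. The number difference thus enters them, and they cannot show whether the lean depends on a library. With standard errors of 0.15 to 0.75 on the log2 scale, 0 of the 35 differences passed in the fit of all libraries without a term for replicate number.

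**Figure D4:**
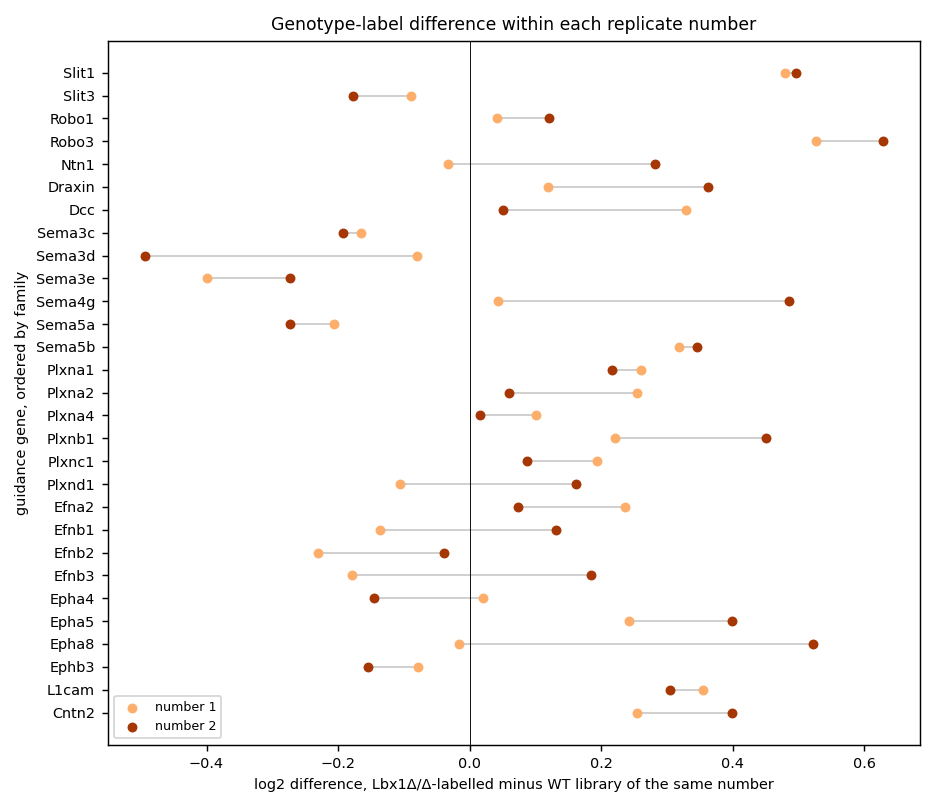
Log2 difference between the Lbx1Δ/Δ-labelled and the WT library of the same replicate number, for number 1 (light) and number 2 (dark), for the 29 single-accession guidance genes. Robo3 (0.53 and 0.63) lies farthest to the right at both numbers, and Ntn1, Plxnd1, Efnb1, Efnb3, Epha4 and Epha8 straddle 0.

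Markers of cell types moved between the numbers together with the guidance genes. All 11 tested of 14 pan-neuronal markers were called higher in number 2, with a median log2 difference of 0.87, and their summed level was 7345 and 8111 CPM in the number 1 libraries of WT and Lbx1Δ/Δ and 12960 and 14690 CPM in the number 2 libraries. Tubb3, a neuronal tubulin, was at 1766, 3048, 2021 and 3748 CPM. Of 9 markers listed for commissural classes dI1 and dI2, 5 were called higher and 1 lower. They summed to 424 and 485 CPM in number 1 and 747 and 859 CPM in number 2. Most of that sum was Lhx1 (158, 313, 180 and 316 CPM), Pou4f1 (126, 225, 134 and 277 CPM) and Lhx5 (85.4, 134.5, 93.7 and 166 CPM). Pou4f1 also stands in the sensory ganglion list, so the sum is not a level of dI1 and dI2 alone. Motor neuron markers were called higher in 3 of 8. Sensory ganglion markers, from neurons that lie beside the tube, were higher in 6 and lower in 1 of 9 tested (Pou4f1 and Isl1 also stand in the neuronal lists), with Prph and Runx1 at 0 and summed levels of 531 to 539 CPM in number 1 and 821 to 934 CPM in number 2. Markers of neural crest and Schwann precursors were higher in 3 and lower in 1 of 5 tested (1146 and 1354 CPM against 1749 and 1941 CPM). Neural progenitor markers had a median of -0.027, with 2 higher and 4 lower of 11 tested, Pax6 at 0 and summed levels of 7894 and 8236 CPM in number 1 and 7435 and 7113 CPM in number 2. Guidance counts were also scaled to the summed counts of the pan-neuronal markers. On that scale 22 of the 35 tested guidance genes were lower in number 2 within both genotypes, and 8 were higher within both. The share of all tested genes on that scale was not computed. The pan-neuronal sum was itself higher in number 2, so a gene of equal CPM in both numbers falls on it. These counts are therefore no result about the guidance genes. The part of the marker lists in the guidance results was not tested. In pooled tubes more cells of a type cannot be told from more RNA per cell.

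Markers of mesenchyme, muscle, surface ectoderm, blood and the forebrain and midbrain were in part called lower in number 2, as were Slit3, Sema5a, Plxnd1 and Ephb3. Of 14 tested markers of mesenchyme and cartilage 8 were called lower in number 2 and 0 higher, with summed levels of 6924 and 5033 CPM in number 1 and 5147 and 4548 CPM in number 2. Skeletal muscle markers were lower in 9 of 10 tested (947 and 812 CPM against 456 and 151 CPM, Tnnt1 at 0) and surface ectoderm markers in 4 of 6 (151 and 116 against 96.3 and 60.7 CPM, Trp63 at 0). Blood markers were lower in 4 of 5 tested (8162 and 5847 against 2795 and 2597 CPM, Hba-a1 and Alas2 at 0), and forebrain and midbrain markers in 5 of 5 (69.9 and 51.5 against 27.0 and 18.8 CPM). Floor plate markers, the midline source of Slit and netrin, had 1 of 4 tested called higher (Spon1, 299.6, 452, 327 and 509.8 CPM), with summed levels of 347 and 377 CPM in number 1 and 502 and 559 CPM in number 2, and Shh at 32.5, 34.04, 33.04 and 31.6 CPM. The part of these tissues in the guidance results was not tested.

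**Figure D5:**
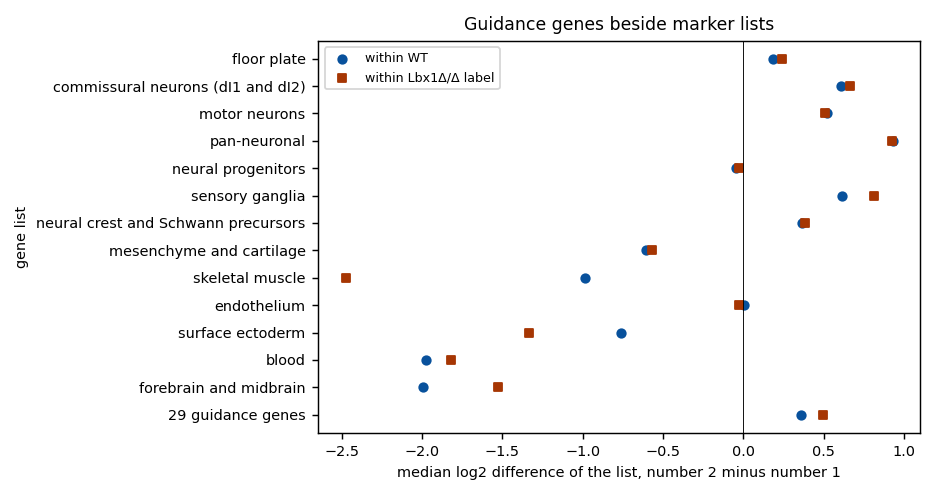
Median log2 difference between number 2 and number 1 of each marker list and of the 29 single-accession guidance genes, within WT (circles) and within Lbx1Δ/Δ (squares). The guidance genes (0.36 and 0.49) lie on the side of the neuronal lists, and muscle, blood, forebrain and surface ectoderm lists lie on the other side.

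Related guidance genes outside the 50 were called in both directions, against 17.8% of all tested genes called higher and 17.8% called lower in number 2. Of 13 tested of 19 other guidance ligands, 5 were called higher and 3 lower in number 2, with a median log2 difference of 0.27. Efna3, an ephrin-A ligand, was at 34.7, 65.7, 41.8 and 81.9 CPM and Rgma, a ligand of Neo1, at 267, 359, 308 and 476 CPM, both higher in number 2. Cxcl12, a chemokine of the meninges and mesenchyme, was at 133, 81.7, 108 and 83.4 CPM and lower (log2 -0.56), as was the ephrin-A ligand Efna4 (-0.73). Of 18 tested of 24 other receptors and adhesion molecules, 9 were higher and 4 lower. Chl1, an L1-family adhesion molecule, was at 166, 448, 208 and 511 CPM (log2 1.35), and Dscaml1 at 7.58, 34.6, 5.10 and 40.6 CPM (log2 2.55), a larger difference than that of any of the single-accession guidance genes above. Dscam, a netrin-binding adhesion molecule, had a log2 difference of 1.32. Of 27 tested of 41 growth cone signalling genes, 6 were higher and 2 lower. Dpysl4, of the collapsin response family, was at 508, 792, 616 and 1028 CPM (log2 0.67), and Dock1, an activator of Rac, was at 199, 111, 174 and 98.5 CPM and lower (log2 -0.85). None of these related genes passed the genotype test, in which their lists had median log2 differences of 0.15, 0.12 and 0.089, and among those with the smallest unadjusted edgeR p in their lists were Flrt2 at 0.164 and Rac1, with 6 to 15 counts per library, at 0.0746.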

How the data were processed

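RNA-seq was done on 4 pools of E12.5 neural tubes. The authors deposited a table per library of whole-number read counts, 1 value per RefSeq accession and not normalized. TopHat2 2.1.1, featureCounts 4.6.0.1 and edgeR 3.4.3 with build mm9 were used, per the submitters' processing notes. The annotation release, the strand setting and the handling of reads shared by accessions are each not stated in them or in the labels. Of 41411 accessions, 41218 were named from the RefSeq gene table (GRCm38.p6) and 97 from GENCODE M21, and 96 stayed unnamed as genes of their own. Counts were summed per symbol.

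Genes were filtered with filterByExpr (minimum count 10, minimum total 15), scaled with TMM (factors 0.993 to 1.02) and tested with glmQLFit and glmQLFTest (edgeR 4.0.16, R 4.3.3), two-sided, Benjamini-Hochberg adjusted over all 10757 genes. Genotype was tested alone, and replicate number with genotype as a term. Fits with both terms left few residual degrees of freedom, so their edgeR standard errors rest largely on the spread shared across genes. CPM used library totals. Differences between single libraries used log2 CPM with 0.5 counts added. The tests were tried on simulated data. For the genotype test these held no difference between replicate numbers, unlike the real libraries, so the trial does not check that test here. Alternatives were RLE and library-total scaling, DESeq2 1.42.0, other filters, single-accession genes, the replicate block and leaving out libraries. All 50 guidance genes could be named, with up to 4 (number test) and 2 (genotype test) genes of smallest p per related list and the 3 most abundant tested genes per marker list. Genes named as being at 0 and the gene ratios of the closing part were chosen after the values were seen. Members and lists were chosen with earlier results of these data known. Some marker genes are not reported here by name.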

Additional observations from a re-analysis of the deposited data

Results flagged for a closer look

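A few genes moved in opposite directions in the 2 pairs of libraries that share a comparison, each by more than the counting error of its pair. With 1 library for each genotype and number, the difference between the pairs was not tested. Between Lbx1Δ/Δ and WT, Plxnd1 differed by -0.106 on the log2 scale at number 1 and by 0.162 at number 2, Efnb1 by -0.136 and 0.131, and Efnb3 by -0.179 and 0.185. Between number 2 and number 1, Efnb1 differed by -0.189 within WT and 0.0781 within Lbx1Δ/Δ, and Epha4 by 0.0857 and -0.0811.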

How the results depend on the processing

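The replicate numbers could not be shown to pair the libraries. Differences between numbers within WT and within Lbx1Δ/Δ correlated at 0.623 across tested genes, which are not independent. With the replicate block, 92 genes differed by genotype (29 higher, 63 lower), of which 2 were guidance genes, Slit1 (log2 0.47, edgeR adjusted p = 0.0104) and Robo3 (0.56, adjusted p = 0.0102). With a library left out, 10 to 26 guidance genes were fitted higher in Lbx1Δ/Δ, and genotype differences ran from -0.20 to 1.14 for Slit1, -0.44 to 0.13 for Slit3, -0.11 to 0.24 for Robo1, -0.13 to 0.35 for Ntn1, -0.27 to 0.65 for Draxin and -0.24 to 0.68 for Dcc. These genotype fits had no term for replicate number, so the number difference enters them. The number test with genotype as a term could not be repeated with a library left out, since no residual degrees of freedom remain. With number as the only term, chosen after seeing the data, 1 gene and 0 guidance genes were called without WT library 1, 6 and 0 without Lbx1Δ/Δ library 1, 2387 and 16 without Lbx1Δ/Δ library 2, and 3917 and 26 without WT library 2. Number differences of genes that were not called changed sign: Epha4 was 0.0026 with library totals, 0.0074 with single-accession genes and -0.10 to 0.074 with a library left out (0.0023 without Lbx1Δ/Δ library 1), Sema3a -0.11 to 0.94 (-0.0014 without WT library 1), Sema6a -0.041 to 0.40, Efnb2 -0.19 to 0.026 and Sema3e -0.025 to 0.36 (-0.0068 without WT library 2). The cause was not tested. Genes with several accessions, such as Robo2, the neuropilins and the Unc5 receptors, were hardly counted at the depth at which every single-accession guidance gene had 222 counts or more.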

Other observations

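Ratios between relatives in the same library showed unequal change. The count ratio of Robo3 to Robo1 was 0.493, 0.663, 0.691 and 0.943 in WT library 1, WT library 2, Lbx1Δ/Δ library 1 and Lbx1Δ/Δ library 2, and that of Slit1 to Slit3 was 0.869, 2.62, 1.29 and 4.18. The ratio of Draxin to Ntn1 was 0.49, 0.699, 0.545 and 0.739. The ratio of Dcc to Ntn1 was 1, 1.7, 1.29 and 1.45. All 4 ratios were higher in number 2 than in number 1 within both genotypes. At the same number the first 3 were higher in the Lbx1Δ/Δ library, while that of Dcc to Ntn1 was higher there at number 1 and lower at number 2. The pairs were chosen after the values had been seen. The genes of a pair differ in transcript length, so a ratio is comparable between libraries and does not rank the genes.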
